A study of Homo sapiens with 20 samples.

Results

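The 8 genes described here carry the calcium signal of T cells from the cytosol to the nucleus. They are the NFAT transcription factors NFATC1, NFATC2 and NFATC3, the calcineurin catalytic subunits PPP3CA, PPP3CB and PPP3CC, the calcineurin regulator RCAN1 and the calmodulin-dependent kinase CAMK4. They were chosen by gene name and make up 8 of the 60719 genes and 97 of the 232184 isoforms in the tables, and all 8 genes passed the low-count filter. RNA was sequenced from Jurkat, a human T cell leukemia line that is wild type (WT) for CD47, and from JinB8, a CD47-deficient somatic mutant of Jurkat that is represented by 1 mutant line. Each line gave 10 libraries from cells plated in serum-free HITES medium. The 1 untreated library of a line was taken at 1 h. Plates coated with anti-CD3 plus anti-CD28 (CD3+CD28), the same plates with thrombospondin-1 (CD3+CD28+TSP1), and TSP1 alone were each sampled at 1, 3 and 6 h. TSP1, a secreted ligand of CD47, was used at 1 μg/mL, and the coat held 4 μg/mL of anti-CD28. Each condition was sequenced once, so the spread within a line includes differences between treatments and time points, and p-values measure the spread between these libraries.

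Engagement of the T cell receptor releases calcium from the endoplasmic reticulum and opens calcium channels in the plasma membrane. Calmodulin loaded with calcium activates calcineurin, a phosphatase made of a catalytic A subunit and a regulatory B subunit, which removes phosphates from NFAT proteins and lets them enter the nucleus. RCAN1 binds and restrains calcineurin, and its short form is itself a classical NFAT target, which closes a feedback loop. CAMK4 is a nuclear kinase that calmodulin and CaM kinase kinases activate, and CREB is among its substrates. NFAT activity is set mostly by phosphorylation and location of the protein, neither of which was measured by these libraries.

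On the hg38 assembly, NFATC1 (ENSG00000131196.18) lies at chr18:79395856-79529325 on the plus strand, NFATC2 (ENSG00000101096.20) at chr20:51386957-51562831 on the minus strand, and NFATC3 (ENSG00000072736.19) at chr16:68084751-68229259 on the plus strand. PPP3CA (ENSG00000138814.17), the calcineurin Aα gene, lies at chr4:101023409-101348278 on the minus strand. PPP3CB (ENSG00000107758.16), the Aβ gene, lies at chr10:73436433-73496024 on the minus strand, and PPP3CC (ENSG00000120910.15), the Aγ gene, at chr8:22440819-22541142 on the plus strand. RCAN1 (ENSG00000159200.18) lies at chr21:34513142-34615113 on the minus strand and CAMK4 (ENSG00000152495.11) at chr5:111223653-111494886 on the plus strand. The exons of PPP3CB overlap the antisense gene PPP3CB-AS1, which had a median of 6.94 CPM. CPM are counts relative to the library total, scaled by TMM factors except for overlapping genes and cell type markers. Exons of NFATC1, NFATC3, PPP3CA and PPP3CC also overlap genes on the opposite strand, and those of NFATC3 and RCAN1 genes on the same strand. The gene overlapping PPP3CA, FLJ20021, had a median of 0.563 CPM. Reads of a pair on opposite strands can be told apart only with strand information. The strand setting of the counting is not given in the sources used here.

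Library totals ranged from 20483642 to 31737616 counts in Jurkat and from 16107921 to 28525524 in JinB8, with medians of 23970039 and 23502468. CD47 was lower in JinB8 (log2 fold change −1.10, SE 0.0784, adjusted p = 1.05e-10). All 8 T cell markers examined, CD3D and LCK among them, averaged 1 CPM or more in both lines, and none of 4 myeloid markers did, the highest single value being 1.3 CPM of CD14 in a JinB8 library. Of 4 B cell markers only CD79A did, at between 33 and 51.6 CPM in Jurkat and between 4.97 and 10.3 CPM in JinB8. In these bulk samples, fewer cells expressing a gene and less RNA per cell cannot be told apart. A single library stood apart: JinB8 replicate 6 (CD3+CD28+TSP1, 3 h) had the lowest total, and its highest correlation with another library of its line was 0.9764, against 0.9859 or more for each of the other 19. Its effect on NFATC2 is given beside the results for that gene.

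NFATC1 and RCAN1 each use alternative first exons, and the bases ahead of these starts are shown because the counts are divided by start further on. Isoforms whose first bases lie within 500 nt of each other were joined into start groups, numbered along the gene in its direction of transcription. NFATC1 start 1 corresponds to the upstream promoter P1 and start 2 to the downstream promoter P2. RCAN1 start 3 gives the major form in these cells, and start 5 gives the short, calcineurin-inducible form known as RCAN1-4. The 250 bases upstream of each group's first base are printed from hg38 in the direction of transcription. Capitals mark GGAAA, the core that NFAT proteins bind, or TTTCC, which is the same core on the other strand.
NFATC1 start 1, chr18:79395606-79395855, plus strand: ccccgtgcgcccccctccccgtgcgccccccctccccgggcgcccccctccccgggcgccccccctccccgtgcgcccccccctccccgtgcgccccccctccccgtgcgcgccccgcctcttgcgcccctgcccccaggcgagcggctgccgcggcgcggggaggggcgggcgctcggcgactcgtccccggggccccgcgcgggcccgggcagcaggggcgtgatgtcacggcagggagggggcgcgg
NFATC1 start 2, chr18:79400024-79400273, plus strand: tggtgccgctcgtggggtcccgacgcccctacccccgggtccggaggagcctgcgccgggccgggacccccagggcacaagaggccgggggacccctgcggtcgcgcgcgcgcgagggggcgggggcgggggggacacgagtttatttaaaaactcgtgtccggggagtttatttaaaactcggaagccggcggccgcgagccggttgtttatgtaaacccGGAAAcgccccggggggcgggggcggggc
RCAN1 start 3, chr21:34613844-34614093, minus strand: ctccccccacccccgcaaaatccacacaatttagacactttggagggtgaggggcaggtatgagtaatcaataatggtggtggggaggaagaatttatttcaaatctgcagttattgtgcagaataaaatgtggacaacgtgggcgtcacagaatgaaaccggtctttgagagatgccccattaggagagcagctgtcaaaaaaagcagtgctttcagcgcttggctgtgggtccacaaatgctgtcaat
RCAN1 start 5, chr21:34526964-34527213, minus strand: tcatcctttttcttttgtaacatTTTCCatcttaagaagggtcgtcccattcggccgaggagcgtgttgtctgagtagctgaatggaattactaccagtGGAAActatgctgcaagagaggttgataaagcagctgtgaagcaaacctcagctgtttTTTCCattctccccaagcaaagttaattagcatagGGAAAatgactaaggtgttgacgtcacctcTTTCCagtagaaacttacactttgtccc

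The window ahead of RCAN1 start 5 held 5 matches to GGAAA on either strand, 2 on the strand of the gene and 3 on the other. Of 35116 promoter windows of the same length from RefSeq (GRCh38.p14), 0.4% held as many. The window ahead of NFATC1 start 2 held 1 match, and 55.6% of promoter windows hold 1 or more. The windows ahead of NFATC1 start 1 and RCAN1 start 3 held none. G and C made up 87.2% of the bases ahead of NFATC1 start 1 and 42.8% of those ahead of RCAN1 start 5. These matches describe the letters in the windows and are not evidence of binding.

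Levels of the 8 genes relative to each other were read from expected counts divided by isoform length and scaled to the library total as in TPM. On this per-length scale NFATC3 had the highest mean of the members in both lines, at 31.3 ± 3.8 (SD, n = 10) in Jurkat and 36 ± 9.13 (SD, n = 10) in JinB8. CAMK4 followed in Jurkat at 29.4 ± 13.6 (SD, n = 10). NFATC3 was above CAMK4 in 6 of the 10 Jurkat libraries, and CAMK4 reached 49.6 in the untreated library at 1 h and fell to 12.9 in CD3+CD28 at 6 h. In JinB8 CAMK4 came after NFATC3 and NFATC1 at 23.4 ± 12.5 (SD, n = 10). The calcineurin subunits PPP3CC and PPP3CB and the inhibitor RCAN1 lay close together, with means from 10.8 to 12.5 in Jurkat and from 12.6 to 13.9 in JinB8. PPP3CA had a per-length level of 4.72 in Jurkat and 3.32 in JinB8, so it was the least abundant of the catalytic subunits in both lines. NFATC2 was the least abundant member, at 1.21 ± 0.465 (SD, n = 10) in Jurkat and 2.13 ± 1.33 (SD, n = 10) in JinB8.

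NFATC1 moved from rank 6 in Jurkat, at 7.6 ± 2.21 per length (SD, n = 10), to rank 2 in JinB8, at 24.9 ± 10.6 (SD, n = 10). A large share of this came from short isoforms without a defined coding sequence. With protein-coding isoforms alone the NFATC1 per-length level was 4.48 ± 1.14 in Jurkat and 9.17 ± 4.82 in JinB8 (SD, n = 10 each). On that scale NFATC1 in JinB8 no longer ranked 2 and lay below NFATC3, PPP3CC, CAMK4, RCAN1 and PPP3CB. With protein-coding isoforms alone the means of CAMK4 were also lower, at 17 in Jurkat and 13.5 in JinB8. Those of NFATC3 were 22.3 in Jurkat and 27 in JinB8. In the orders over all isoforms, most neighbours had overlapping ranges over the 10 libraries. The exceptions were PPP3CA over NFATC2 in Jurkat and RCAN1 over PPP3CA in JinB8.

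The first comparison asked which members differed between JinB8 and Jurkat over all treatments and times. NFATC1 was higher in JinB8, PPP3CA and CAMK4 were lower, and the other 5 members did not pass the test. Thus 3 of 8 members were called at an adjusted p of 0.05 (edgeR quasi-likelihood test, Benjamini-Hochberg adjustment), while 40.4% of the 16327 genes tested were called, so this share is near the background. At 6 h alone, where each line has 3 libraries, NFATC2 (0.37, adjusted p = 0.00869), NFATC3 (−0.14, adjusted p = 0.0135) and PPP3CB (−0.18, adjusted p = 0.0297) were called as well, but 59.6% of all genes were called there, so 6 of 8 members is again a share near the background. All values that follow are in CPM, which compares libraries but not genes of different length.

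NFATC1 is the NFAT protein whose short isoform is induced through its own P1 promoter in activated lymphocytes. Its level ran from 14.1 through a median of 23.3 to 33.8 CPM in the Jurkat libraries and from 31.3 through 56.3 to 82.7 CPM in JinB8. The ranges overlapped only at their edges, and the JinB8 library was the higher in each of the 10 pairs that share a treatment and a time. JinB8 exceeded Jurkat by 1.19 on the log2 scale (SE 0.194, adjusted p = 3.12e-05). Taken at one time point, the lines did not overlap: its log2 fold change was 1.05 for 1 h, 1.45 for 3 h and 1.00 for 6 h. Summed over protein-coding isoforms alone the log2 fold change was 0.79 (adjusted p = 0.00427).

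NFATC2, the NFAT protein that resting T cells hold ready in the cytosol, was at low levels. It ran from 5.67 through 8.43 to 17.1 CPM in Jurkat and from 8.51 through 11.7 to 29.1 CPM in JinB8. The ranges overlapped broadly and each line had 1 library well above its others, the untreated library in Jurkat and replicate 6 in JinB8. The log2 fold change of 0.49 (SE 0.213, adjusted p = 0.0727) did not pass, although JinB8 was higher in 9 of 10 matched pairs. It was 0.30 without JinB8 replicate 6 (adjusted p = 0.157), 0.62 without Jurkat replicate 1 (adjusted p = 0.0165) and 0.54 without JinB8 replicate 7 (adjusted p = 0.0498). It was 0.77 in the 6 pairs with antibodies (adjusted p = 0.0453), or 0.43 with JinB8 replicate 6 left out (adjusted p = 0.0773), and 0.12 in the 4 without (adjusted p = 0.843). By time it was 0.0331 at 1 h (adjusted p = 0.877), 1.32 at 3 h (adjusted p = 0.0391) and 0.37 at 6 h (adjusted p = 0.00869). With JinB8 replicate 6 left out the 3 h value was 0.66 (adjusted p = 0.0342).

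NFATC3, which is abundant in thymocytes, ran from 155.8 through 175.5 to 190.3 CPM in Jurkat and from 153.9 through 164.0 to 210.6 CPM in JinB8. The ranges overlapped over nearly their whole length. No difference passed the test, the log2 fold change being −0.0498 (adjusted p = 0.543).

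PPP3CA, one of the calcineurin A subunits that T cells express, ran from 16 through 19.6 to 31.5 CPM in Jurkat and from 7.58 through 12.7 to 19.1 CPM in JinB8. It was lower in JinB8 in 10 of 10 matched pairs, by −0.82 on the log2 scale (SE 0.181, adjusted p = 0.000845). The ranges overlapped across times but not within a time. The gap was widest at 1 h, with a log2 fold change of −1.20, and was −0.78 at 3 h and −0.46 at 6 h.

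PPP3CB, the other major A subunit of T cells, ran from 32.8 through 36.8 to 42.7 CPM in Jurkat and from 31 through 33.4 to 43.1 CPM in JinB8. It was lower in JinB8 in 9 of 10 matched pairs, but the log2 fold change of −0.0935 did not pass (adjusted p = 0.315). PPP3CC, best known from testis and also expressed in lymphocytes, ran from 17.9 through 22 to 32.6 CPM in Jurkat and from 16.1 through 22.2 to 29.9 CPM in JinB8. Its log2 fold change was −0.0793 (adjusted p = 0.68), and the lines overlapped over most of their range.

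RCAN1 had the same median in both lines, 25.7 CPM. Its range was 20.8 to 34.3 CPM in Jurkat and 21.3 to 31.4 CPM in JinB8, and the log2 fold change was −0.0261 (adjusted p = 0.868). The lines overlapped over nearly their whole range.

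CAMK4 ran from 145.0 through 188.9 to 385.4 CPM in Jurkat and from 47 through 129.2 to 216.0 CPM in JinB8. It was lower in JinB8 in 10 of 10 matched pairs, and its log2 fold change was −0.78 (SE 0.294, adjusted p = 0.0386). The ranges overlapped across times, because the level fell with time in both lines, but the lines did not overlap at any single time. Within times CAMK4 differed by −0.68 (1 h), −0.53 (3 h) and −1.61 (6 h) on the log2 scale, and with the matched pairs as a block it was −0.91 (adjusted p = 5.17e-05). The pooled call was lost when 1 library was left out in 10 of 20 cases, JinB8 replicate 6 among them, with adjusted p up to 0.0795. It was also lost in the 6 pairs with antibodies alone (−0.72, adjusted p = 0.167) and in the 4 pairs without (−0.80, adjusted p = 0.256).

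**Figure D1:**
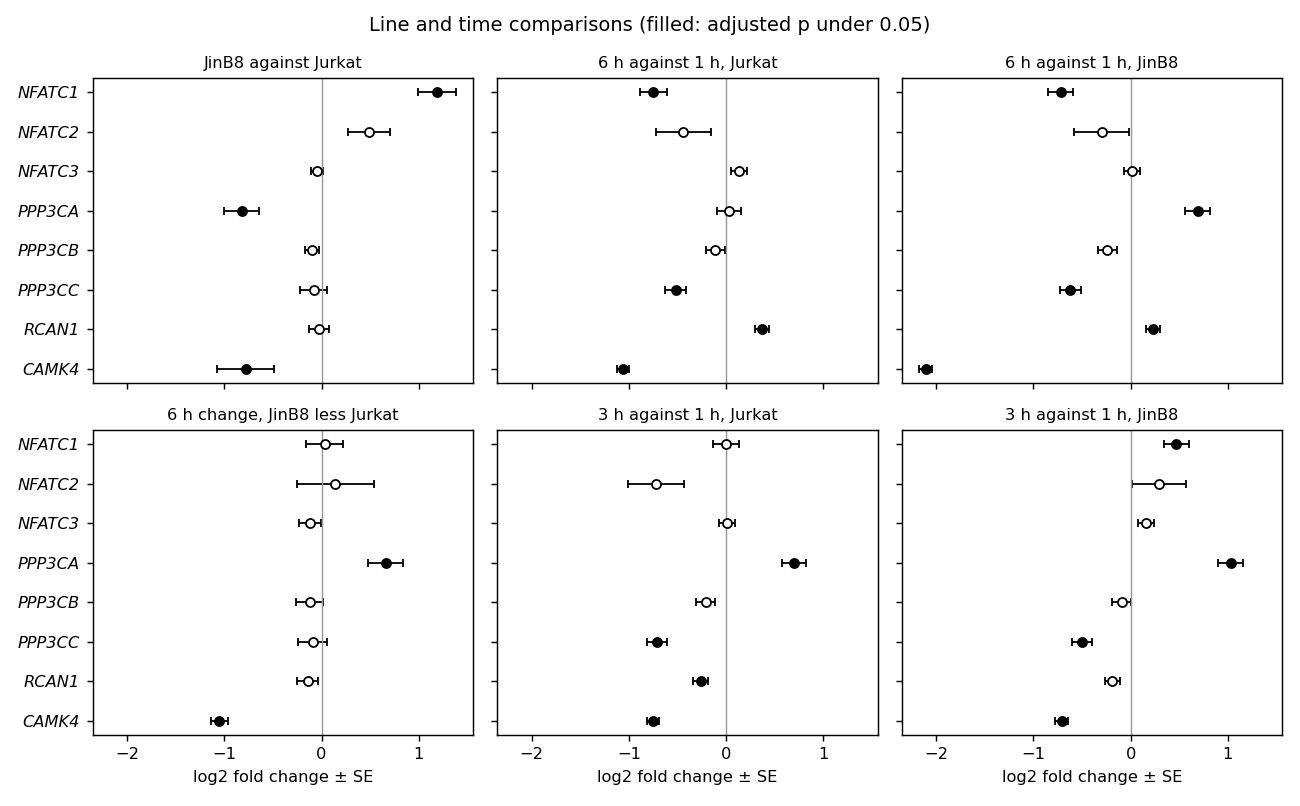
Log2 fold changes of the 8 members, with standard errors, for JinB8 against Jurkat over all libraries and for 6 h against 1 h in each line. NFATC1 lies to the higher side and PPP3CA and CAMK4 to the lower side between the lines, and the CAMK4 change with time is larger in JinB8 than in Jurkat.

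The second comparison asked how the members changed with time after plating. Untreated cells were sampled at 1 h only, so time in culture and duration of treatment cannot be told apart. Between 1 and 6 h NFATC1, PPP3CC and CAMK4 fell and RCAN1 rose in both lines, and PPP3CA rose in JinB8. In Jurkat 4 of 8 members were called, against 50.5% of all genes tested, and in JinB8 5 of 8, against 53%. These shares are near the background in both lines.

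CAMK4 had the largest change of the members at 6 h in both lines. In Jurkat it measured 385.4 CPM in untreated cells, 304.3 in CD3+CD28, 298.3 in CD3+CD28+TSP1 and 319.8 in TSP1 at 1 h. The CD3+CD28, CD3+CD28+TSP1 and TSP1 libraries then gave 186.2, 171.0 and 191.5 CPM at 3 h and 145.0, 150.1 and 146.3 CPM at 6 h. The 3 times did not overlap, and at 6 h the treatments lay within a few CPM of each other. The log2 fold change at 6 h was −1.06 (SE 0.0647, adjusted p = 2.52e-08).

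In JinB8 CAMK4 measured 196.5 CPM in untreated cells, 211.8 in CD3+CD28, 193.4 in CD3+CD28+TSP1 and 216.0 in TSP1 at 1 h. The same treatments, without the untreated cells, gave 121.0, 131.7 and 126.6 CPM at 3 h and 47, 47 and 49.8 CPM at 6 h. Again no time overlapped another, whatever the treatment. The log2 fold change at 6 h was −2.11 (SE 0.0676, adjusted p = 2.42e-10), the change of rank 3 by p among all genes in this comparison.

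The fall of CAMK4 differed between the lines at 6 h, by −1.05 on the log2 scale (SE 0.0917, adjusted p = 8.44e-06), where 16.6% of all genes were called for such a difference. At 3 h the log2 fold change was −0.75 in Jurkat (SE 0.0643) and −0.71 in JinB8 (SE 0.0647), and the difference of 0.0389 did not pass (SE 0.0908, adjusted p = 0.841). Leaving out any 1 library kept the 6 h difference between −1.11 and −1.

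NFATC1 in Jurkat measured 25.4, 20.8, 33.8 and 26.3 CPM at 1 h (untreated, CD3+CD28, CD3+CD28+TSP1 and TSP1), 31.3, 28.3 and 21.2 CPM at 3 h, and 16.2, 17.7 and 14.1 CPM at 6 h, with treatments in the same order. The 6 h libraries lay below all others, and the log2 fold change from 1 h was −0.75 (SE 0.138, adjusted p = 0.000416). In JinB8 the same order gave 62.3, 57, 55.5 and 45.6 CPM at 1 h, 73.5, 82.7 and 63.5 CPM at 3 h, and 32, 32.3 and 31.3 CPM at 6 h. Each 3 h library lay above all 1 h libraries and each 6 h library below them.

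The log2 fold change of NFATC1 in JinB8 was 0.47 at 3 h (SE 0.129, adjusted p = 0.0107) and −0.72 at 6 h (SE 0.131, adjusted p = 0.000381). The 3 h call had an adjusted p of 0.0511 without JinB8 replicate 4 (TSP1, 1 h), and with protein-coding isoforms alone the changes were 0.83 at 3 h (adjusted p = 0.00277) and −0.42 at 6 h (adjusted p = 0.0628). At 3 h Jurkat showed no such rise, but the difference of 0.48 between the lines did not pass (SE 0.187, adjusted p = 0.164). It passed without Jurkat replicate 2 (adjusted p = 0.0104), without Jurkat replicate 5 (adjusted p = 0.0389) and with no low-count filter (adjusted p = 0.0303), and was 0.88 with protein-coding isoforms alone (adjusted p = 0.0757). None of the 8 members was called for a difference between the lines at 3 h, where 4.28% of all genes were called and 3519 had an unadjusted p under 0.05.

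PPP3CA in Jurkat measured 20.7, 16, 18.6 and 18.4 CPM at 1 h, 31.5, 30.6 and 24.3 CPM at 3 h, and 17.2, 20.8 and 16.5 CPM at 6 h, in the same order of treatments. It was high at 3 h alone, and its log2 fold change at 3 h was 0.70 (SE 0.122, adjusted p = 0.000621). In JinB8 it measured 7.58, 8.2, 8.05 and 8.15 CPM at 1 h, 16.5, 19.1 and 14.4 CPM at 3 h, and 14, 11.7 and 13.7 CPM at 6 h. There the 3 h and 6 h libraries all lay above the 1 h libraries.

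In JinB8 the log2 fold change of PPP3CA was 1.03 at 3 h (SE 0.13, adjusted p = 5.09e-05) and 0.69 at 6 h (SE 0.131, adjusted p = 0.000496). The 6 h change in Jurkat was 0.034 (SE 0.123, adjusted p = 0.838), and the difference between the lines was 0.66 (SE 0.18, adjusted p = 0.0238). That difference ranged from 0.57 to 0.78 with 1 library left out and lost its call without Jurkat replicate 4, 8 or 10 or JinB8 replicate 2, 8 or 10, with adjusted p up to 0.0764.

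PPP3CC moved opposite to PPP3CA between 1 and 3 h. In Jurkat it measured 28.6, 32.6, 30.2 and 29.8 CPM at 1 h, 17.9, 19.3 and 19.4 CPM at 3 h, and 22.6, 20.4 and 21.4 CPM at 6 h. In JinB8 it measured 26.7, 27.7, 28.1 and 29.9 CPM at 1 h, 22.5, 16.1 and 22 CPM at 3 h, and 16.8, 19 and 20.2 CPM at 6 h. In both lines every later library lay below every 1 h library.

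The log2 fold change of PPP3CC at 3 h was −0.71 in Jurkat (SE 0.106, adjusted p = 0.000172) and −0.50 in JinB8 (SE 0.105, adjusted p = 0.00216). At 6 h it was −0.52 in Jurkat (SE 0.104, adjusted p = 0.000803) and −0.62 in JinB8 (SE 0.105, adjusted p = 0.000219). PPP3CB changed little, with means between 34.5 and 39.9 CPM at the 3 times in Jurkat and between 32.2 and 36.5 CPM in JinB8, and it was called at neither time in either line.

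RCAN1 in Jurkat measured 25.3, 26.6, 25.2 and 26.1 CPM at 1 h, 21.7, 20.8 and 22.3 CPM at 3 h, and 34.3, 33.2 and 33 CPM at 6 h. The 3 times did not overlap, and the log2 fold change was −0.26 at 3 h (SE 0.0776, adjusted p = 0.0182) and 0.37 at 6 h (SE 0.0763, adjusted p = 0.00109). In JinB8 it measured 24, 27.9, 25 and 25.6 CPM at 1 h, 21.9, 21.3 and 25.8 CPM at 3 h, and 31.4, 29.4 and 31.4 CPM at 6 h. The 6 h libraries were again above all others, a log2 rise of 0.23 (SE 0.0764, adjusted p = 0.0198). This rise lost its call without JinB8 replicate 4, 8 or 9, and with no low-count filter (0.23, adjusted p = 0.165).

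The 3 h call of RCAN1 in Jurkat was lost in 4 cases when 1 library was left out, and with no low-count filter (−0.28, adjusted p = 0.0907). Counting called members at 3 h, 4 of 8 were called in Jurkat (PPP3CA, PPP3CC, RCAN1 and CAMK4), against 34.3% of all genes. In JinB8 4 of 8 were called (NFATC1, PPP3CA, PPP3CC and CAMK4), against 38%.

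NFATC2 in Jurkat measured 17.1 CPM in the untreated library, between 10 and 11.6 CPM in the other 1 h libraries, between 5.67 and 8.34 CPM at 3 h and between 7.29 and 8.52 CPM at 6 h. Every later library lay below every 1 h library, yet the log2 fold change of −0.72 at 3 h was not called (SE 0.29, adjusted p = 0.0711), while DESeq2 gave an adjusted p of 0.0289. With no low-count filter the fall was called at 3 h (−0.74, adjusted p = 1.23e-05) and at 6 h (−0.45, adjusted p = 0.0101). Both falls were also called in a fit of the Jurkat libraries only. In the fit without JinB8 replicate 6, which shares its estimate of the spread, the falls of NFATC2 in Jurkat were called at 3 h (−0.72, adjusted p = 0.00382) and at 6 h (−0.43, adjusted p = 0.0376). In JinB8 the 3 h libraries measured 12.4, 29.1 and 8.51 CPM, the middle value being replicate 6, and no time stood apart from the others. The lines differed in their 3 h change of NFATC2 by 1.01 (SE 0.401, adjusted p = 0.169), and by 0.49 (adjusted p = 0.28) without JinB8 replicate 6. It passed without JinB8 replicate 7, the lowest of the JinB8 3 h libraries (1.40, adjusted p = 0.0331), and with no low-count filter (1.02, adjusted p = 5.25e-05). NFATC3 kept its means between 169.0 and 183.5 CPM in Jurkat and between 160.9 and 183.1 CPM in JinB8 and was called at neither time.

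**Figure D2:**
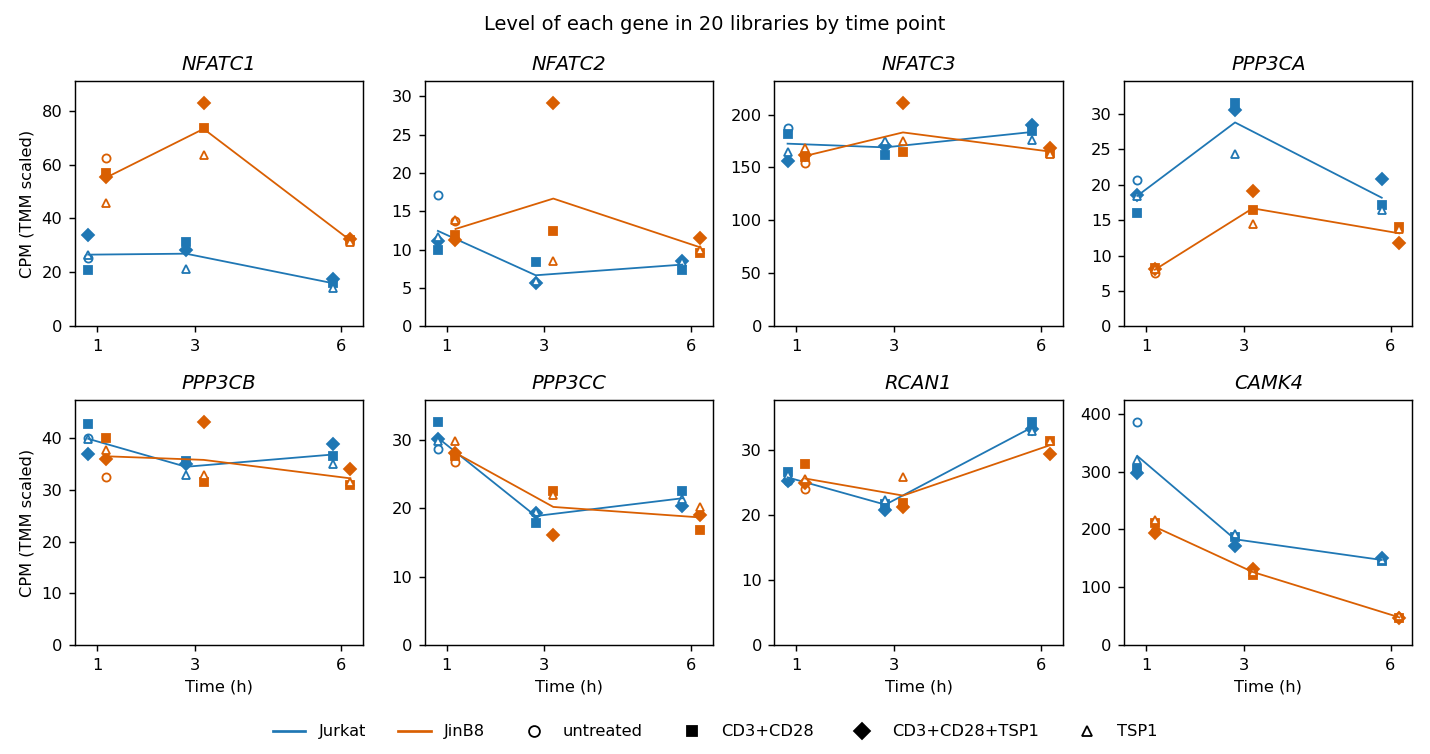
CPM of the 8 members in each of the 20 libraries, plotted against time with the treatments marked. CAMK4 falls at each step in both lines and ends at 47 to 49.8 CPM in JinB8 and 145.0 to 150.1 CPM in Jurkat, PPP3CA peaks at 3 h, and 1 JinB8 library at 3 h is high for NFATC2 at 29.1 CPM.

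The third comparison asked whether TSP1 or the antibodies changed the members within a line, with time as a term in the model. None of the 8 members was called in any of 8 contrasts. Of all genes, 0.0919% (15 genes) were called for CD3+CD28+TSP1 against TSP1 in Jurkat and 0% in each of the other 7 contrasts. At an unadjusted p under 0.05, 816 genes passed for CD3+CD28+TSP1 against TSP1 in Jurkat, 366 against CD3+CD28, 1359 for CD3+CD28 against untreated and 1165 for TSP1 against untreated. In JinB8 the same contrasts gave 2636, 1771, 657 and 1406 genes. Untreated cells were a single library in each line, so the contrasts against them rest on 1 library.

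The member with the smallest p in Jurkat was CAMK4, whose untreated library at 385.4 CPM lay above the other 1 h libraries at 298.3 to 319.8 CPM. Its log2 fold change was −0.33 in CD3+CD28 (SE 0.0965, adjusted p = 0.565) and −0.29 in TSP1 (adjusted p = 0.683). The differences of NFATC2 from the untreated library were larger but less certain. They were −0.62 in CD3+CD28 (SE 0.418, adjusted p = 0.686) and −0.64 in TSP1 (SE 0.412, adjusted p = 0.715). NFATC1 was 0.37 higher on the log2 scale in CD3+CD28+TSP1 than in TSP1 in Jurkat (SE 0.136, adjusted p = 0.797). The CD3+CD28+TSP1 library was the higher at 1, 3 and 6 h, at 33.8, 28.3 and 17.7 CPM against 26.3, 21.2 and 14.1 CPM. Against CD3+CD28, NFATC1 differed by 0.21 (adjusted p = 1), and by −0.0179 without Jurkat replicate 2.

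In JinB8 the largest differences were those of NFATC2, 0.59 for CD3+CD28+TSP1 against TSP1 (adjusted p = 0.316) and 0.55 against CD3+CD28 (adjusted p = 0.459). Without replicate 6 they were 0.0704 (adjusted p = 0.934) and −0.0131 (adjusted p = 1), so both rest on that library. With no low-count filter and replicate 6 kept, both were called (adjusted p = 0.00707 and 0.0199), where 1.31% and 0.976% of all genes were. NFATC1 in JinB8 was −0.39 in TSP1 against untreated (adjusted p = 0.626). For the 2 contrasts with CD3+CD28+TSP1, the difference between the lines was tested for each member as well, and the smallest adjusted p was 0.705.

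**Figure D3:**
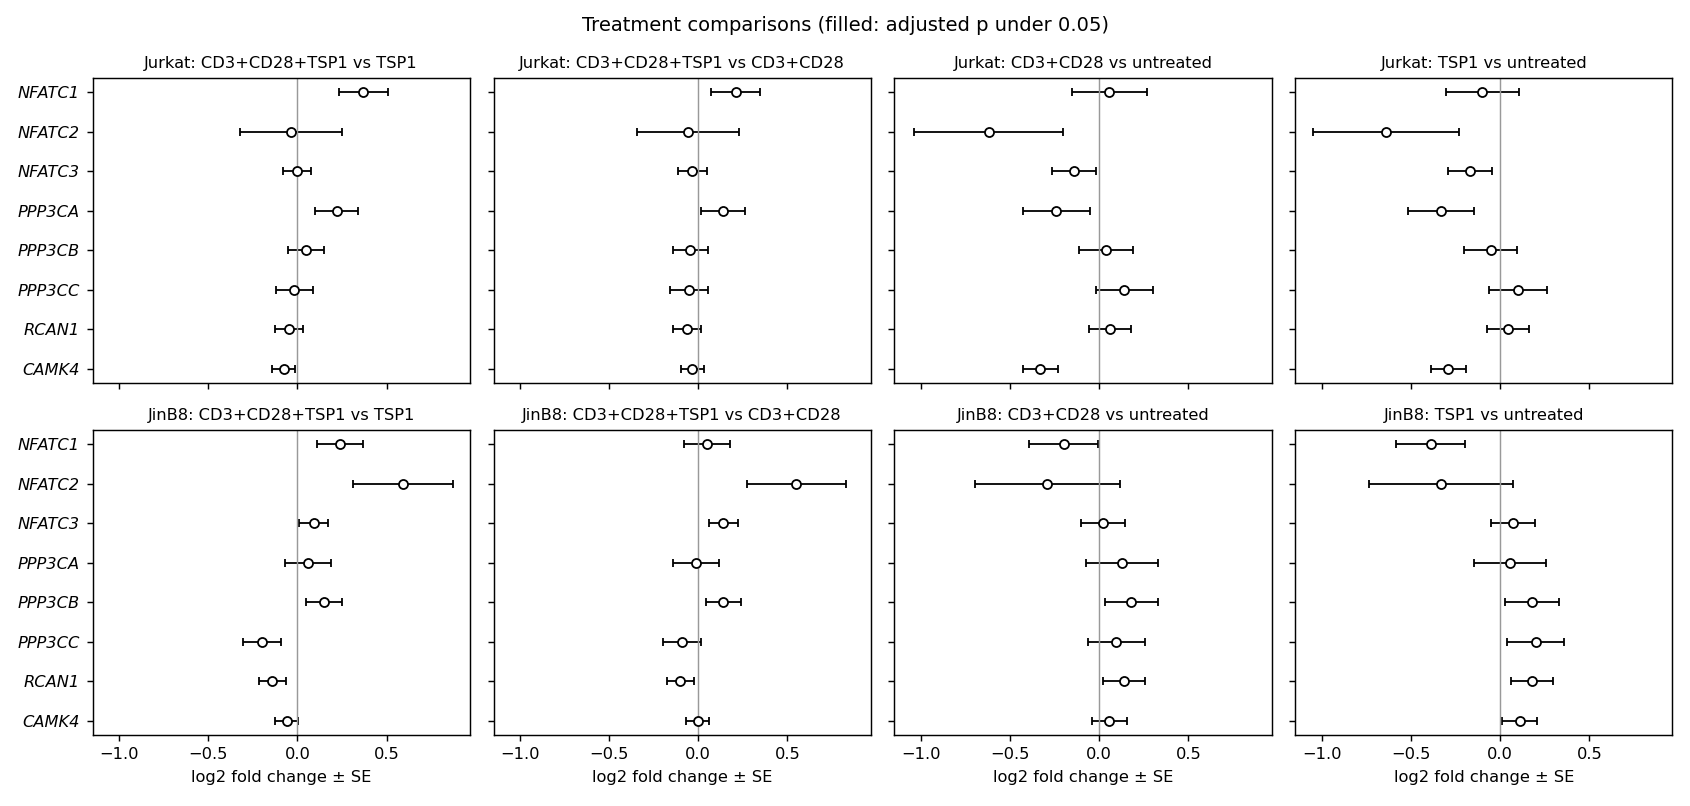
Log2 fold changes of the 8 members, with standard errors, for the 8 treatment contrasts within Jurkat and within JinB8. No member is called in any of them. NFATC2 lies far from 0 with wide errors, at −0.62 for CD3+CD28 against untreated in Jurkat. In JinB8 it lies at 0.59 for CD3+CD28+TSP1 against TSP1.

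Isoforms were tested over the 55450 that passed the filter, 43 of the 97 member isoforms among them. Between the lines 6 of these 43 were called, against 15.1% of all isoforms: NFATC1-204, NFATC1-209, NFATC1-211, NFATC3 isoform ENST00000535127.2, PPP3CA-203 and PPP3CB-201. NFATC1-211 was higher in JinB8 by 2.11 on the log2 scale (adjusted p = 3.58e-06). NFATC1-204 held between 0 and 17.8% of NFATC1 counts in Jurkat (median 2.37%) and between 7.92 and 22.6% in JinB8 (median 14.7%). It passed the low-count filter only through the JinB8 libraries, so its call (2.65 on the log2 scale, adjusted p = 0.0362) supports nothing further. PPP3CB-201 was lower in JinB8, with a log2 fold change of −0.52 (adjusted p = 0.0246), as was PPP3CA-203 at −1.05 (adjusted p = 0.0473). PPP3CB-201 held 21.3 ± 2.87% of PPP3CB counts in Jurkat and 15.7 ± 4% in JinB8 (SD, n = 10 each), and its share was lower in JinB8 in 10 of 10 pairs. Testing each isoform's use against the other isoforms of its gene, diffSpliceDGE called 1 member isoform, NFATC1-209, against 0.647% of all isoforms. With the matched pairs as a block it called 3, against 1.44%. NFATC1-209 passed the low-count filter only through JinB8, having no counts in Jurkat, so its calls in this comparison follow from that and support nothing further. A limma test on log2 ratios, added after seeing the data, called 5 against 3.62%: NFATC1-209, NFATC1-211, CAMK4 isoform ENST00000512453.5, NFATC3 isoform ENST00000535127.2 and PPP3CB-202. Between 1 and 6 h 7 member isoforms were called in Jurkat, against 14.9% of all isoforms, and 4 in JinB8, against 17.3%. With 1 library left out these counts ran from 2 (without Jurkat replicate 4) to 8 in Jurkat and from 2 (without JinB8 replicate 2) to 5 in JinB8. The major CAMK4 isoform, CAMK4-201, fell in both lines, by 0.93 in Jurkat (adjusted p = 1.7e-05) and by 2.02 in JinB8 (adjusted p = 1.16e-06), and the protein-coding NFATC3-201 rose by 0.47 (adjusted p = 0.00792) and 0.58 (adjusted p = 0.00228).

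The counts of NFATC1 were then divided by start group, an analysis added after seeing the data. In the fit with start groups in place of members 40.4% of 16340 entries were called between the lines. Start 1 (P1) ran from 4.16 through 6.51 to 13 CPM in Jurkat and from 7.31 through 16.1 to 31.3 CPM in JinB8. It overlapped between lines but was higher in JinB8 in 10 of 10 matched pairs, by 1.18 on the log2 scale (SE 0.254, adjusted p = 0.0007). Its mean share of NFATC1 counts was 30.3% in Jurkat and 29.3% in JinB8. The P1 group includes NFATC1-204, which passed the low-count filter only through JinB8. That isoform held a mean of 6% of NFATC1 counts in Jurkat and 15.2% in JinB8, and its part in the P1 difference was not tested.

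Start 2 (P2) ran from 6.55 through 9.06 to 19.4 CPM in Jurkat and from 5.95 through 12.7 to 28.5 CPM in JinB8. It was higher in JinB8 in 8 of 10 pairs, and the log2 fold change of 0.42 did not pass (SE 0.253, adjusted p = 0.193). The balance of P1 to P2 was tested directly as the log2 ratio of their counts, whose mean was −0.67 in Jurkat and 0.0948 in JinB8. The difference of 0.77 ± 1.03 (SD, n = 10 pairs) gave a two-sided exact sign-flip permutation p of 0.0332, also 0.0332 after Benjamini-Hochberg adjustment over the 2 ratios tested. The ratio was higher in JinB8 in 8 of 10 pairs, and leaving out pair 2, 3, 4, 5, 7 or 9 raised the exact p to between 0.0547 and 0.0664.

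Start 6 is NFATC1-211, a transcript without a defined coding sequence whose own first exon lies at chr18:79523924-79524035 near the 3′ end of the gene. It ran from 1.84 through 4.55 to 7.88 CPM in Jurkat and from 11.2 through 22.6 to 27.7 CPM in JinB8. The lines did not overlap, and the log2 fold change was 2.10 (SE 0.248, adjusted p = 4.05e-07). It held 20.2 ± 6.27% of NFATC1 counts in Jurkat and 38.9 ± 7.47% in JinB8 (SD, n = 10 each). Its log2 ratio to P1 and P2 together was higher in JinB8 by 1.43 ± 0.772 (SD), in 10 of 10 pairs (two-sided exact sign-flip permutation p = 0.00195, the smallest that 10 pairs allow, 0.00391 after Benjamini-Hochberg adjustment).

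Start 7 is NFATC1-209, whose own first exon of 284 nt lies at chr18:79527119-79527402. It had 0 counts in all 10 Jurkat libraries and between 12.5 and 66 estimated counts in the JinB8 libraries. Its mean was 1.37 CPM in JinB8, scaled by TMM factors. A level of 3 counts per Jurkat library was 0.125 CPM on average, without that scaling. Because NFATC1-209 passed the low-count filter only through JinB8, no fold change is given. The last exons of NFATC1-209 and NFATC1-211, of 1051 and 1556 nt, overlap 10 other isoforms, and only their first exons of 284 and 112 nt are their own. The RSEM estimate therefore divides reads of the shared exon between isoforms, and the division was not tested against reads.

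With time, the P1 group fell in both lines, by 0.69 at 6 h on the log2 scale in Jurkat (SE 0.248, adjusted p = 0.0329) and by 0.96 in JinB8 (SE 0.229, adjusted p = 0.00274). NFATC1-211 fell by 0.95 in Jurkat (SE 0.218, adjusted p = 0.00225) and by 1.16 in JinB8 (SE 0.177, adjusted p = 8.13e-05). P2 was not called at 6 h, with changes of −0.68 in Jurkat (adjusted p = 0.117) and 0.25 in JinB8 (adjusted p = 0.573). At 3 h in JinB8 P2 rose by 1.18 (SE 0.339, adjusted p = 0.0142), while P1 at 0.56 did not pass (SE 0.219, adjusted p = 0.0567). Of all entries in the fit with start groups, 50.4% in Jurkat and 52.9% in JinB8 were called at 6 h, and 38% in JinB8 at 3 h. Whether P1 and P2 differed in their change with time was not tested.

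**Figure D4:**
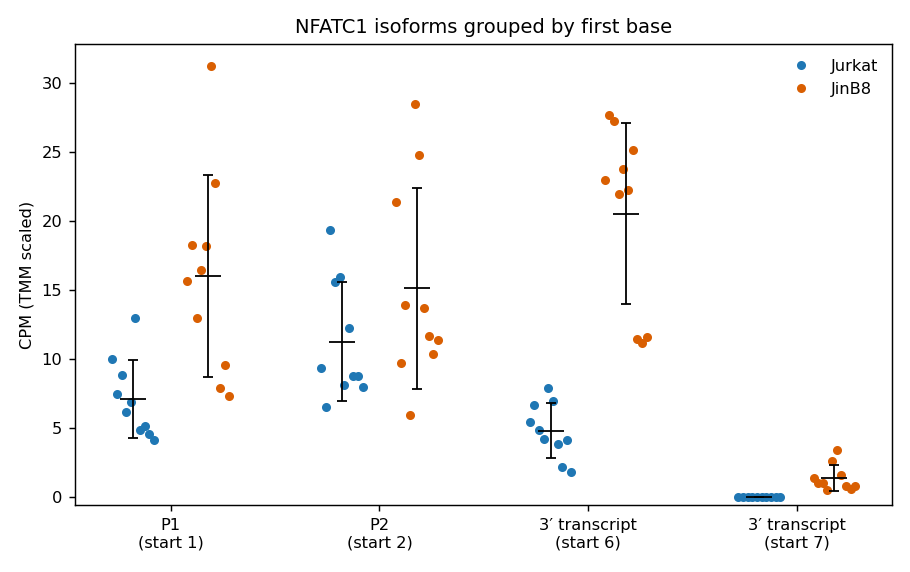
CPM of the NFATC1 start groups in each library of both lines. The NFATC1-211 group of JinB8 lies wholly above that of Jurkat (11.2 to 27.7 against 1.84 to 7.88 CPM), NFATC1-209 is at 0 in Jurkat, and P1 and P2 overlap between the lines.

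NFATC3 as a whole kept its level, but the estimated counts of its starts 2 and 3 moved in opposite directions with time. Start 2, which held 80.8% of its counts in Jurkat and 84.2% in JinB8, rose at 6 h by 0.34 on the log2 scale in Jurkat (SE 0.0869, adjusted p = 0.00526) and by 0.22 in JinB8 (SE 0.0868, adjusted p = 0.0488). Start 3, which has no protein-coding isoform, ran from 3.43 to 47.4 CPM in Jurkat and from 2.18 to 25.1 CPM in JinB8. It fell by 2.24 in Jurkat (SE 0.467, adjusted p = 0.00114) and by 1.83 in JinB8 (SE 0.473, adjusted p = 0.00494). Start 1 was not called, at 0.75 in Jurkat (adjusted p = 0.095) and −0.59 in JinB8 (adjusted p = 0.179). At 6 h 50.4% of all entries in this fit were called in Jurkat and 52.9% in JinB8. RSEM divides reads between overlapping isoforms, and the division between these starts was not tested against reads.

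RCAN1 came almost wholly from 2 starts. Start 3, which includes RCAN1-204, held 71.9 ± 8.07% of its counts in Jurkat and 71 ± 10.2% in JinB8 (SD, n = 10 each). Start 1, which includes RCAN1-201, held 25.4 ± 8.19% and 23.6 ± 6.77%. The NFAT-inducible start 5, whose upstream bases hold the 5 GGAAA matches, had between 0 and 5.59 counts per library in Jurkat (median 2.73) and between 0 and 14.8 in JinB8 (median 3.02). Its annotated RCAN1-4 isoform RCAN1-202 had 0 counts in all 10 Jurkat libraries and at most 4.94 counts in JinB8, in CD3+CD28 at 6 h, which was 0.692% of RCAN1. Neither was tested, since most of these levels lie around the floor of 3 counts, and a small change in the RCAN1-4 form could not be detected at this depth. In CAMK4, by contrast, 1 isoform held most counts: the protein-coding CAMK4-201 held 94.3 ± 2.46% of counts in Jurkat and 91.1 ± 2.77% in JinB8 (SD, n = 10 each). Its length of 11942 nt raises its share of counts over that of shorter isoforms. Per length, protein-coding CAMK4 isoforms had means of 17 in Jurkat and 13.5 in JinB8. Over all isoforms the means were 29.4 and 23.4.

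The other genes of the pathway were taken from a list of 54, of which 45 were tested. Between the lines 8 were higher in JinB8, 12 lower and 25 not called, a share near the 40.4% called over all genes, with a median log2 fold change of −0.00632 against −0.00659 over all genes. The groups are given by role. Of 13 genes of calcium entry and stores 4 were higher and 3 lower (median 0.31). ITPR1, a channel that releases calcium from the endoplasmic reticulum, was at 58.9 to 79.7 CPM in Jurkat and 79.1 to 107.2 CPM in JinB8, 0.49 higher (SE 0.0732, adjusted p = 9.37e-06). Its relative ITPR2 went the other way, from 113.5 to 195.1 CPM in Jurkat to 43.2 to 95 CPM in JinB8, −1.02 (SE 0.152, adjusted p = 1.02e-05). ATP2B1, a pump that expels calcium across the plasma membrane, was −0.90 (SE 0.136, adjusted p = 1.14e-05), with no overlap between 51.1 to 122.4 CPM in Jurkat and 33.8 to 44.4 CPM in JinB8.

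Of 7 tested genes for other calcineurin subunits and inhibitors, 1 was higher and 3 lower (median −0.17). AKAP5, an anchoring protein that holds calcineurin near its substrates, was −0.96 (SE 0.174, adjusted p = 0.000108), from a median of 37.3 to 19.2 CPM. CHP1, a calcium-binding protein that can inhibit calcineurin, was −0.37 (SE 0.0594, adjusted p = 2.44e-05). FKBP1A, the partner through which tacrolimus blocks calcineurin, was 0.31 higher (SE 0.0713, adjusted p = 0.00114). Of 9 NFAT partners and kinases only NFATC2IP was called, at −0.24 (SE 0.0813, adjusted p = 0.0237).

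Of 10 tested genes for calmodulin and CaM kinases 1 was higher and 2 lower (median 0.0216). CAMK2D, a CaM kinase II subunit, was −0.81 (SE 0.0952, adjusted p = 3.56e-07), and CALM2, one of the genes for calmodulin, was −0.40 (SE 0.0769, adjusted p = 0.000209). PPM1F, a phosphatase of CaM kinases, was 0.54 higher (SE 0.171, adjusted p = 0.0138).

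Of 12 listed NFAT target genes 6 had enough counts to be tested, and 2 were higher and 3 lower in JinB8 (median −1.86). TNF, an inflammatory cytokine, ran from 0.599 through 1.49 to 3.37 CPM in Jurkat and from 10.7 through 18.3 to 26.1 CPM in JinB8. The lines did not overlap, and the log2 fold change was 3.30 (SE 0.288, adjusted p = 3.25e-09). CD69, an early activation marker, was lower at −2.33 (SE 0.581, adjusted p = 0.00253), and NR4A1, an immediate early nuclear receptor, at −2.19 (SE 0.642, adjusted p = 0.00875). For both the lines overlapped. CD69 ran from 20.3 to 454.6 CPM in Jurkat and from 5.41 to 67.7 CPM in JinB8. NR4A1 ran from 6.35 to 485.2 CPM in Jurkat and from 11.4 to 74.6 CPM in JinB8. At 6 h against 1 h 5 of the 6 target genes fell and 1 rose in each line, where 50.5% of all genes in Jurkat and 53% in JinB8 were called. The medians of the 6 were −3.98 and −2.63. IL2 itself did not pass the filter.

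**Figure D5:**
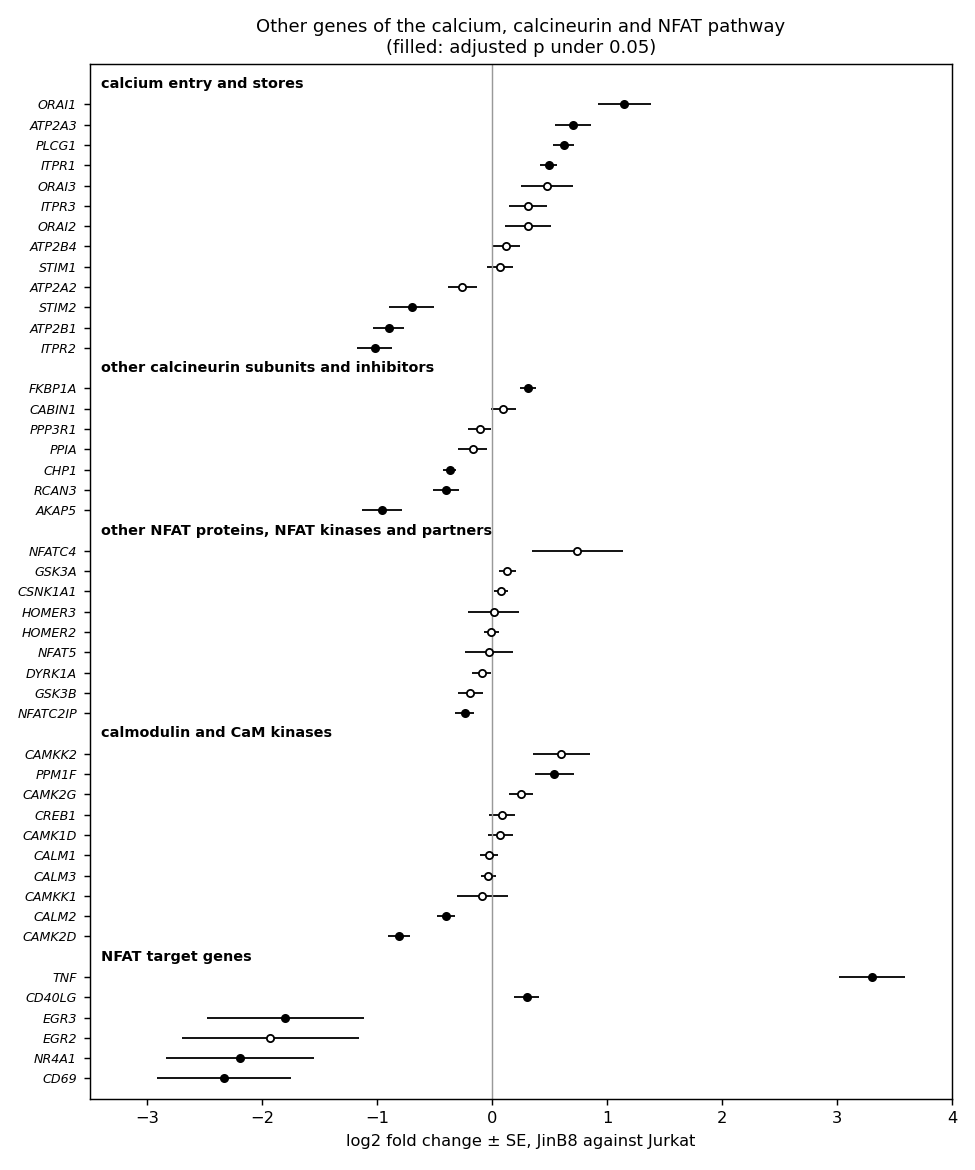
Log2 fold changes of JinB8 against Jurkat, with standard errors, for the 45 tested pathway genes grouped by role. Called genes lie on both sides of 0 in each role apart from the NFAT partners, where NFATC2IP at −0.24 is the only called gene, and TNF at 3.30 lies farthest to the higher side.

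The genes whose pattern was most like each member were found by Pearson's r over the 20 libraries, on log2 CPM less the mean of the library's line, among 9886 genes. These values are descriptions, and the libraries share their times and lines. CAMK4 was followed closely by CDK5RAP2, GOLGB1 and ATP11B, each with r = 0.99, and PPP3CC by PI4K2B (0.97), OSER1 (0.96) and BBS2 (0.96). RCAN1 was most like TMEM135 (0.97), ADSS2 (0.96) and RABGGTB (0.95), NFATC1 most like MYADM (0.95), IRGQ (0.93) and FZD1 (0.93), and PPP3CA most like PIK3C2B (0.94), ARHGAP31 (0.93) and BEND3 (0.93). Among the closest genes to NFATC2 were CCNK (0.93) and ARID1B (0.92). NFATC3 was most like UBP1 (0.91), GSK3B (0.85) and CASP2 (0.85), and PPP3CB most like KDM2A (0.85), DROSHA (0.84) and GATAD2B (0.83). Among the members themselves CAMK4 and PPP3CC moved together (r = 0.76), and NFATC1 moved opposite to RCAN1 (r = −0.83) and PPP3CA opposite to PPP3CC (r = −0.77).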

How the data were processed

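The authors trimmed reads of TruSeq mRNA libraries with Cutadapt 1.18, aligned them to GRCh38 (hg38) with STAR 2.4.2a in its two-pass mode and deposited RSEM 1.3.3 expected counts per gene and isoform on GENCODE version 36, without normalization. Their ComBat batch and low-count cutoff are not given in the sources used here, so neither step was repeated, and 2 columns per table that match no sample were not used. Counts were rounded and tested with edgeR 4.0.16 in R 4.3.3: filterByExpr by line (minimum count 10, minimum total 15), TMM factors, quasi-likelihood tests and Benjamini-Hochberg adjustment over all features, threshold 0.05. The lines were compared on 20 libraries without further terms. Treatments and times came from 1 model holding a coefficient per treatment within a line, and 3 h and 6 h terms per line. DESeq2 1.42.0 and limma 3.58.1 served as alternatives. On simulated counts with 200 changed genes the line test recovered 44.8% of 1.5-fold, 80.6% of 2-fold and 92.4% of 4-fold changes. On simulated isoforms diffSpliceDGE made 224 of its 510 calls in unchanged genes and the limma ratio 36 of 522. Lengths, starts and coding status came from GENCODE version 44, which holds 229165 of the isoforms and 99.1% of the counts. The floor is 3 counts, for counting error only.

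The JinB8 and Jurkat libraries matched for treatment and time carried the same replicate number, and their deviations from the line means correlated in all 10 pairs (0.12 to 0.49, median 0.41), so a fit with the pairs as a block was run as an alternative to the unpaired comparison of the lines. The pairing was read from treatment and time in the labels. The members and the pathway and marker lists were chosen with earlier results of these data known. Isoforms are named where they held at least 5% of a member's counts or were called, and pathway genes are the up to 3 called genes with the smallest p per role. Start groups, their ratios, the limma ratio and the sums over protein-coding isoforms were added after the data were seen. Epithelial and fibroblast markers were also read: 0 and 2 of 4 genes averaged 1 CPM or more in Jurkat, and 1 and 2 of 4 in JinB8. For each member the 3 genes most like it over the libraries are named, except where an item is not reported here.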

Additional observations from a re-analysis of the deposited data

Results flagged for a closer look

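In groups of this size chance sets about 1 library in 20 groups apart, so single libraries far from their group carry little weight on their own. Within Jurkat, the untreated library (replicate 1) had 17.1 CPM of NFATC2, and the next highest library had 11.6. Within JinB8, replicate 6 (CD3+CD28+TSP1, 3 h) had 29.1 CPM of NFATC2, with 13.9 CPM in the next highest library, and 210.6 CPM of NFATC3, with 174.6 CPM in the next. The same library had the lowest total of all 20 and was the least like the rest of its line. The part of these properties in its NFAT levels was not tested.

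The change of 2 members between 1 and 6 h differed between the lines by an interaction test in edgeR. CAMK4 fell further in JinB8, by −1.05 on the log2 scale (adjusted p = 8.44e-06), and each JinB8 library at 6 h lay below each Jurkat library. PPP3CA rose in JinB8 and not in Jurkat, a difference of 0.66 (adjusted p = 0.0238). With 1 library left out the difference stayed between 0.57 and 0.78. Its call was lost for 6 of the 20 libraries, with adjusted p up to 0.0764.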

How the results depend on the processing

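Of 521 recomputed counts of calls 499 lay within 1.5 times the value reported, and of 1334 recomputed log2 changes 1257 kept their direction and side of the threshold, while 35 lost and 26 gained a call and 16 changed sign. The cause of each change was not tested. Most sign changes were between the lines in members near 0: RCAN1 was 0.00675 with upper-quartile factors, 0.0211 in the 4 pairs without antibodies, 0.0947 at 3 h alone and −0.0575 to 0.029 with 1 library left out. NFATC3 was 0.00686 with limma voom, 0.0236 with protein-coding isoforms only and 0.12 at 3 h alone, PPP3CB 0.0597 at 3 h alone, and PPP3CC 0.11 at 3 h alone and 0.0146 in the 4 pairs without antibodies. With 1 library left out, NFATC1 in CD3+CD28+TSP1 against CD3+CD28 ran from −0.0179 to 0.43 in Jurkat, and NFATC2 in the same contrast in JinB8 from −0.0131 to 0.88. At 6 h alone 6 members were called between the lines, where 59.6% of all genes were. With no low-count filter 1 member was called in JinB8 for CD3+CD28+TSP1 against TSP1 and 1 against CD3+CD28 (NFATC2 in both), 2 for the 3 h difference between lines (NFATC1 and NFATC2, against 3.4% of all genes), 2 member isoforms between the lines (against 4.81%), 2 for changed usage (0.965%) and 3 at 6 h in Jurkat (2.71%). With 1 library left out, the 3 h difference between lines gave 0 to 1 members and the 6 h difference 1 to 2, and member isoforms called at 6 h numbered 2 to 8 in Jurkat and 2 to 5 in JinB8. Changed usage was called for 5 isoforms by the limma ratio and 0 with a filter of 1 CPM in every library.

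With the matched pairs as a replicate block 3 members were called between the lines, NFATC1 (1.16), PPP3CA (−0.85) and CAMK4 (−0.91), and 8957 genes in all against 6596. Usage was called for 3 isoforms under the block, NFATC3 start 3 gained a call (−0.64, adjusted p = 0.0369), and no other call changed among the 8 members and NFATC1 starts 1, 2, 6 and 7. Of the 10 Jurkat libraries 1 was most like its own pair. The line difference of CAMK4 was not called in the 6 pairs with antibodies alone (−0.72, adjusted p = 0.167) or in the 4 without (−0.80, adjusted p = 0.256). Contrasts against untreated cells gave no value without the untreated library. Depth limited the RCAN1-4 form, most of whose levels lay around the floor of 3 counts, and NFATC1-209 in Jurkat, which had 0 counts.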
